A study of Mus musculus with 42 samples.

Results

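The genes described here are 40 mouse genes of G2 and mitosis, taken by name from the 49585 gene rows of a count matrix of bulk RNA sequencing, and followed across thymus, intestine, liver and pancreas of mice that differ in their p53 gene. The list was written from textbook roles, with earlier results of these data known. It holds the mitotic cyclins and CDK1 with their regulators, mitotic kinases, the spindle checkpoint, kinesins, kinetochore proteins, the exit from mitosis, and the markers Top2a, Mki67 and Foxm1. All 40 passed the filter on low counts in every fit. The study asked how the transcriptomes of stressed and unstressed tissues of p53-mutant mice differ from those of p53-null mice. Mice of a mixed BALB/C and C57BL6 background were killed at 4 weeks of age, either unirradiated (basal) or 4 h after irradiation. Irradiated thymus came from 4 mice of each of 4 genotypes. These were p53-null (Null), p53 +/- with 1 wild-type allele (Het), p53 AD/- (AD) and p53 RP/- (RP), and in Het, AD and RP the other allele is null. The basal thymus groups held 2 Null, 3 Het and 3 AD animals, whereas 3 AD and 3 Null animals each gave intestine, liver and pancreas. The alterations are germline, so every cell of a tissue carries them. The labels write the mutant alleles only as AD and RP, and they give neither the dose nor the sex. No irradiated mouse was also a basal mouse, and no RP or wild-type mouse was in the basal groups.

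Entry into mitosis is driven by the kinase CDK1 bound to B-type cyclins, which CDC25 phosphatases switch on and WEE1 holds back. The spindle checkpoint delays anaphase until every kinetochore is attached, and the anaphase-promoting complex with CDC20 then marks cyclin B and securin for destruction. Most of these genes are transcribed late in the cell cycle under the MuvB, B-MYB and FOXM1 proteins and NF-Y, which reach their promoters through the cell cycle genes homology region (CHR) and CCAAT boxes. After DNA damage, wild-type p53 induces Cdkn1a, whose product p21 inhibits cyclin-dependent kinases and favours the repressive form of the MuvB complex. The young thymus is rich in dividing thymocytes.

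The promoters shown next are of genes on which the results turn: Ccnb1, Cdk1 and Aurka, which were lower in irradiated Het than in irradiated Null thymus, Ckap2, which was higher there, and Ccnb2 and Cdc20, which were not called there but were lower in irradiated than in basal Het thymus. The sequences come from RefSeq (GRCm38.p6) and read 5′ to 3′ on the minus strand, on which all 6 genes lie. Capitals mark a CHR match (TTTGAA or TTCGAA, on either strand) or a CCAAT match (CCAAT, or ATTGG where it lies on the other strand), and no CHR match overlaps a CCAAT match in the stretches shown. Cdk1, Ccnb2, Cdc20, Aurka and Ckap2 are shown from 120 bases to 1 base before the RefSeq start, and Ccnb1 from 120 to 63 bases before it.
Ccnb1, chr13:100786549-100786606: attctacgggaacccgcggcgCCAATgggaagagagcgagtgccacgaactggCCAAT
Cdk1, chr10:69352913-69353032: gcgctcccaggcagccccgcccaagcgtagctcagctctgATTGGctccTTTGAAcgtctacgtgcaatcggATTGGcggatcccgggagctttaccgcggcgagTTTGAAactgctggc
Aurka, chr2:172370571-172370690: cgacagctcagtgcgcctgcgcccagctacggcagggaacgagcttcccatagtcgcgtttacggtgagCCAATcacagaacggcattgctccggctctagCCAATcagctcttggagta
Ccnb2, chr9:70421555-70421674: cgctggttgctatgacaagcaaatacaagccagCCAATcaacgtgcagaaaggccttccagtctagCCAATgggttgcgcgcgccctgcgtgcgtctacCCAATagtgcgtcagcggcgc
Cdc20, chr4:118437344-118437463: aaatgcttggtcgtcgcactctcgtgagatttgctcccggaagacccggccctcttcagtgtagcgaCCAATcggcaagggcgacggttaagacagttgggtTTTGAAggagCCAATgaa
Ckap2, chr8:22185820-22185939: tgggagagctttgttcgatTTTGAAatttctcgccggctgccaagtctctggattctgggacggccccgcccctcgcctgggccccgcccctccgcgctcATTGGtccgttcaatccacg

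RefSeq promoter windows, from 250 bases before to 50 bases after a start, were at hand for 32 of the 40 genes. A CHR match from 100 bases before to 50 bases after the start was present in 23 of the 32 genes (71.9%), against 8.59% of all 32851 windows. At least 1 CCAAT match anywhere in the window was found in 26 genes (81.2%), against 37.4% of all windows, and 2 or more were found in 18 genes (56.2%), against 11.7%. Both the near CHR match and 2 or more CCAAT matches were present in 16 genes (50%), against 1.09% of all windows. In 9 of the genes 2 CCAAT matches started 31 to 34 bases apart, against 1.2% of all windows, a spacing that was searched for after the positions had been seen. The 9 were Aurka, Ccnb1, Ccnb2, Cdca8, Cdk1, Hmmr, Nek2, Spc25 and Ube2c, and in Ccnb1, Cdk1 and Aurka the spacing was 32 bases. The letters of the CHR are not in the Ccnb1 window, and those of Ckap2 and Kif2c lie at 101 and 103 bases before the start, just outside the stretch counted as near. These are matches of letters and not measured binding.

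**Figure D1:**
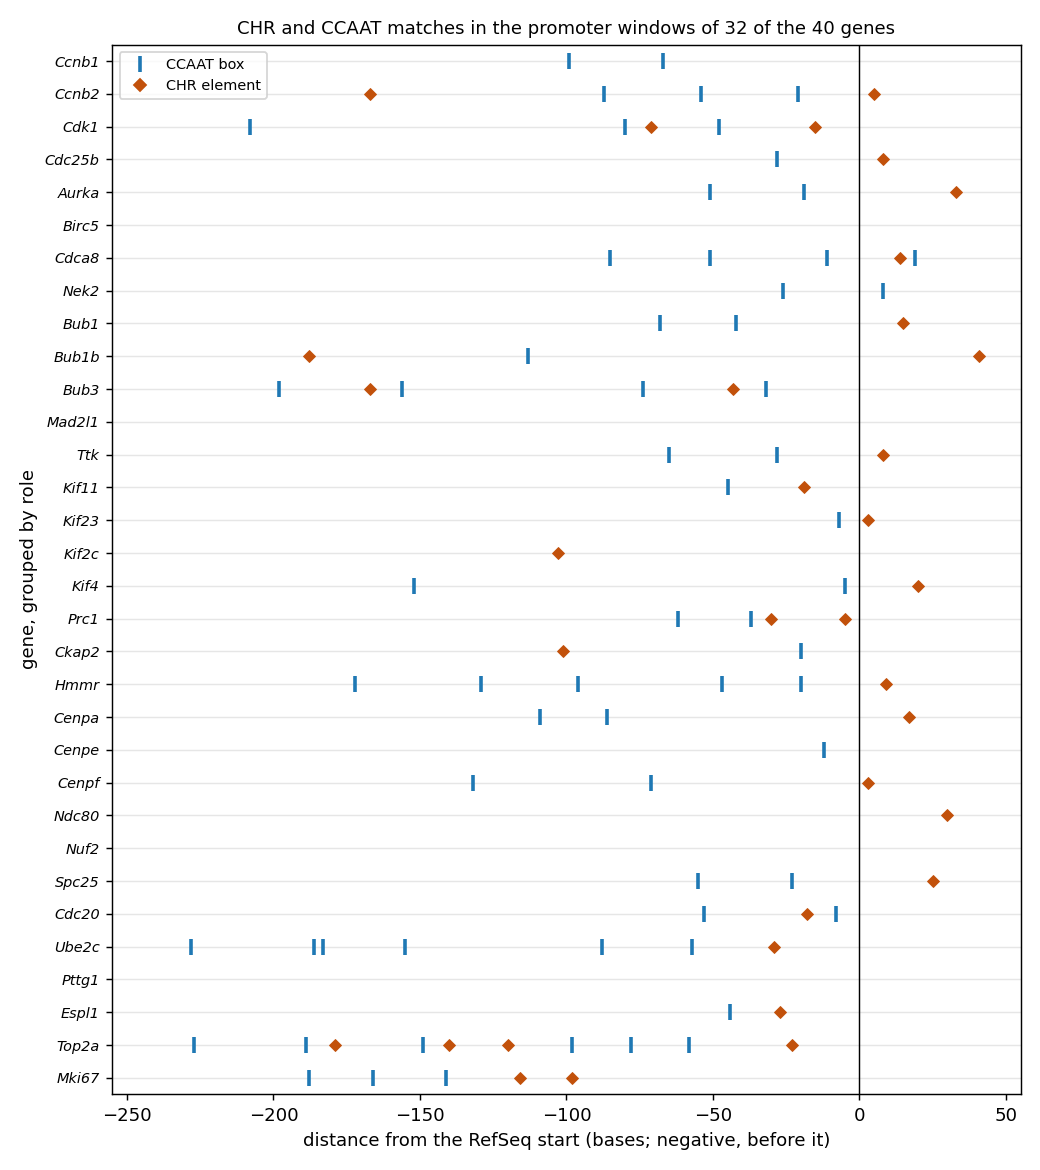
Positions of CHR matches (diamonds) and CCAAT matches (bars) along the promoter windows of the 32 listed genes with a RefSeq window; the horizontal axis is the distance from the RefSeq start in bases and each row is a gene, with both windows of Bub3 and of Prc1 drawn in 1 row. Most CHR matches sit within 100 bases before or just after the start, and most CCAAT matches lie upstream of them.

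Thymus libraries held between 26398761 and 33331829 counts, intestine libraries 24340398 to 34772519, those of liver 26000528 to 32487187 and those of pancreas 19861977 to 24815911. Levels are given in CPM, counts divided by library size on edgeR's usual scale, after TMM scaling within a tissue, in a fixed order of mice in each group, and differences as log2 fold changes with their standard error from edgeR. A gene is called where edgeR's Benjamini-Hochberg adjusted p over all genes tested is under 0.05. Trp53, the altered gene, read 18.8, 21.1, 19.1 and 20.2 CPM in irradiated Null thymus, 31.1, 32.6, 31.2 and 29.9 in Het, 32.7, 34.6, 38.4 and 35.02 in AD and 33.1, 35.7, 32.3 and 33.01 in RP, so the Null mice were below all others but not at 0. Cdkn1a read 3.47, 3.35, 3.28 and 4.18 CPM in irradiated Null and 44.6, 42.4, 38.3 and 42.3 in irradiated Het thymus, a difference of 3.55 ± 0.12 (adjusted p = 1.54e-13). In irradiated AD it read 3.45, 4.31, 4.83 and 4.88 and in RP 3.75, 4.25, 4.2 and 4.24, which overlapped the Null mice. The irradiated mouse Het-631 stood apart in the listed genes. Their mean log2 level relative to the median thymus was 0.15 in Het-631 against -0.34, -0.28 and -0.51 in Het-594, Het-595 and Het-603, while its Cdkn1a was like that of the other Het mice. Counts of called genes on irradiated Het thymus are therefore given with and without Het-631. That mouse was singled out on the levels of these same genes, after they had been seen. Leaving it out lowers the mean Het level of the listed genes by construction, so those counts and p-values are no independent support. Null-604 was the highest irradiated Null mouse, at 0.16 against -0.07, -0.03 and 0.05 in Null-593, Null-856 and Null-857. The count without it is given below for Het against Null.

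Some markers of other cells moved with these groups in thymus, and their part in the results was not tested. In irradiated thymus, Het against Null, 9.79% of all genes were called higher and 9.38% lower. Thymic epithelium (Foxn1, Psmb11, Krt5, Krt8, Ccl25) had 3 of 5 markers higher in irradiated Het than in Null thymus and none lower, with summed levels of 904 to 1074 CPM in Het and 596.1 to 673 in Null. Macrophages (Adgre1, Csf1r, C1qa, Mertk) had 1 of 4 markers higher, with summed levels of 136.7 to 283 CPM in Het, where Het-631 was the lowest, and 162 to 213 in Null. Thymocytes (Cd3e, Cd4, Cd8a, Cd8b1, Rag1, Ptcra, Dntt) had 2 of 7 markers higher, with summed levels of 7659 to 10220 CPM in Het, Het-631 again the lowest, and 6312 to 8192 in Null. Without Het-631 the counts were 4 of 5 epithelial and 4 of 4 macrophage markers higher, and 3 of 7 thymocyte markers higher with 1 lower. Of all genes 11.9% were then called higher and 11.2% lower. No marker of these 3 lists was at 0 in a thymus library. In bulk tissue, fewer dividing cells and less RNA of these genes per dividing cell cannot be told apart.

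In irradiated thymus, 10 of the 40 genes were lower in Het than in Null and 1 was higher, beside 19.2% of all genes called (9.38% lower and 9.79% higher). The 10 were the CDK1 group members Ccnb1, Cdk1 and Ccna2, the kinase Aurka, the checkpoint genes Bub1, Bub3 and Mad2l1, the kinesins Kif20a and Kif2c, and the kinetochore gene Nuf2, and the gene that was higher was Ckap2, a spindle-associated protein. The median log2 difference of the 40 was -0.27, against -0.01 for all genes, and 37 of the 40 lay below 0. At an unadjusted p under 0.05 there were 20 lower and 1 higher. Without Het-631 the count was 30 lower and 0 higher (37 and 1 at an unadjusted p under 0.05) with a median of -0.43, where 23.1% of all genes were called (11.2% lower and 11.9% higher). It was 6 in all without Het-603, with Aurka, Bub3, Mad2l1, Kif2c and Nuf2 no longer called, and 7 without Null-604, Het-594 or Het-595.

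**Figure D2:**
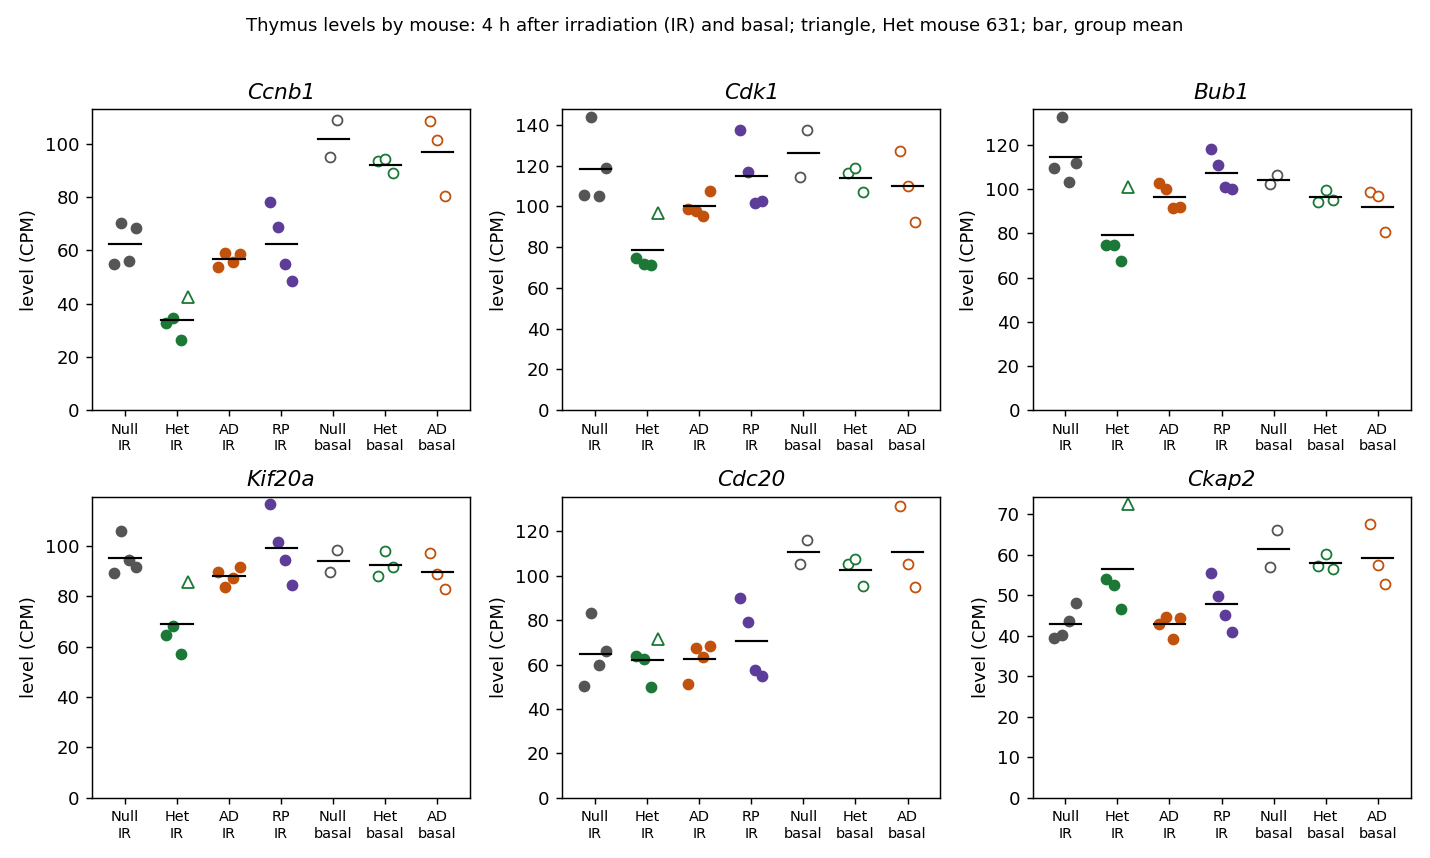
Levels of Ccnb1, Cdk1, Bub1, Kif20a, Cdc20 and Ckap2 in single thymus libraries (vertical axis, CPM), with irradiated mice filled, basal mice open, Het-631 as a triangle and a bar at each group mean. For Ccnb1 the 4 irradiated Het mice lie between 26.4 and 42.4 CPM, under every irradiated Null mouse, and the basal mice of all genotypes lie above the irradiated ones.

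Ccnb1, cyclin B1, the partner of CDK1 at mitotic entry, had the largest difference of the 40. It lies on chromosome 13 (100778650 to 100786570, minus strand, GRCm38). Its level was 54.8, 70.4, 55.9 and 68.4 CPM in the 4 irradiated Null mice and 32.7, 34.5, 26.4 and 42.4 in the 4 Het mice. All Het mice were below all Null mice, Het-631 being the highest of them. The log2 difference was -0.88 ± 0.15 (adjusted p = 0.00044), and it was -0.999 without Het-631.

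Cdk1, the kinase itself (chromosome 10, 69335146 to 69352938, minus strand), read 106, 144, 105 and 119 CPM in Null and 74.8, 71.9, 71.4 and 96.7 in Het. The groups did not overlap, and the difference was -0.59 ± 0.12 (adjusted p = 0.00162). Ccna2, cyclin A2, which serves S phase and G2, read 276, 263, 269.7 and 289.8 CPM in Null and 198, 196, 178 and 270.3 in Het. All Het mice but Het-631 were below the Null mice, with a difference of -0.38 ± 0.10 (adjusted p = 0.00837) that became -0.53 without Het-631. Ccnb2, the other B-type cyclin, read 61.5, 68.8, 65.3 and 76.7 CPM in Null and 60.8, 61.1, 49.2 and 81.4 in Het, groups that overlapped, with a difference of -0.11 ± 0.13 (adjusted p = 0.632). Its promoter window carries 3 CCAAT matches and 2 CHR matches, where that of Ccnb1 carries 2 CCAAT matches and no CHR letters. Cdc25b read 49.5, 95.5, 53.05 and 56.9 CPM in Null and 48.5, 49.01, 42.3 and 69.3 in Het, groups that overlapped. The phosphatase genes Cdc25b and Cdc25c differed by -0.29 ± 0.20 and -0.34 ± 0.15 and were not called with all mice. Wee1, the kinase that inhibits CDK1, differed by -0.30 ± 0.13 (adjusted p = 0.111). Its level was 22.1, 28.1, 22.1 and 23.2 CPM in Null and 17.5, 18.03, 16.01 and 26.1 in Het, where 3 mice lay below every Null mouse and Het-631 within their range. The 7 genes of this group had a median difference of -0.34 with 3 called, and -0.51 with 5 called without Het-631, where Cdc25c and Wee1 joined.

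Among the 7 genes of mitotic kinases and the chromosomal passenger complex, 1 was called and the median was -0.29, and without Het-631 6 were called and it was -0.44. Aurka, the centrosomal kinase Aurora A, read 53.5, 91.8, 60.3 and 70.5 CPM in Null and 43.97, 50.1, 35.99 and 57.4 in Het. The highest Het mouse overlapped the lowest Null mouse, and the difference was -0.56 ± 0.17 (adjusted p = 0.0268), a call that was lost without Null-604, Null-857, Het-594, Het-595 or Het-603. Aurkb, the kinase of the passenger complex, read 87.1, 109, 92.1 and 95.7 CPM in Null and 69.1, 70.2, 59.8 and 102 in Het, with a difference of -0.35 ± 0.13 (adjusted p = 0.0654). All Het mice but Het-631 were below every Null mouse, and without it the difference was -0.53 (adjusted p = 0.000199). Birc5 (survivin) and Cdca8 (borealin), partners of Aurora B, differed by -0.26 ± 0.10 and -0.35 ± 0.13, Tpx2, which activates Aurora A, by -0.29 ± 0.12, and the centrosome kinase Nek2 by -0.26 ± 0.10. None of these 4 was called with all mice and all 4 were called without Het-631. Incenp, the scaffold of the passenger complex, differed by -0.02 ± 0.11 (adjusted p = 0.949) and was called in neither fit.

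In the spindle checkpoint, 3 of 5 genes were lower, and all 5 without Het-631. Bub1, a checkpoint kinase at kinetochores, read 109.8, 133, 103 and 112 CPM in Null and 74.6, 74.7, 67.5 and 101 in Het. The groups did not overlap, and the difference was -0.53 ± 0.10 (adjusted p = 0.00153). Bub3, which carries BUB1 to kinetochores, read 142, 155, 149 and 157 CPM in Null and 132, 136, 119.9 and 124 in Het, again with no overlap. Its difference of -0.24 ± 0.06 (adjusted p = 0.00681) was smaller than that of Bub1, and Het-631 was not the highest Het mouse for this gene. The call was lost without Het-603. Mad2l1, the inhibitor of CDC20, differed by -0.24 ± 0.08 (adjusted p = 0.0491) and was the call nearest the threshold, lost when any Null mouse, Het-594, Het-595 or Het-603 was left out. Bub1b and Ttk differed by -0.36 ± 0.14 and -0.27 ± 0.14 and were not called with all mice, but were called without Het-631.

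Of the 8 kinesin and spindle genes, 2 were lower and 1 higher with all mice, and 6 lower and 0 higher without Het-631. Kif20a, a kinesin needed for cytokinesis, read 89.2, 106, 94.5 and 91.6 CPM in Null and 64.8, 68.4, 56.95 and 85.5 in Het. The groups did not overlap, and the difference was -0.47 ± 0.11 (adjusted p = 0.00422). Kif2c, which depolymerises microtubules at centromeres, read 66.1, 101, 68.7 and 76.6 CPM in Null and 47.4, 53.98, 42.9 and 73.6 in Het, with a difference of -0.52 ± 0.16 (adjusted p = 0.0284) that was not called without Null-604, Het-594, Het-595 or Het-603. Ckap2, a microtubule-binding protein of the spindle, went the other way. It read 39.4, 40.2, 43.6 and 48.1 CPM in Null and 54, 52.4, 46.6 and 72.6 in Het, so that 3 Het mice, but not the lowest, exceeded every Null mouse. The difference of 0.40 ± 0.12 (adjusted p = 0.0222) fell to 0.25 (adjusted p = 0.0549) without Het-631. Leaving out Null-593 or Null-604 likewise ended the call. Kif11, the bipolar kinesin, Kif23, Kif4 and Prc1 of the midzone and Hmmr differed by -0.29, -0.21, -0.30, -0.29 and -0.08 and were not called with all mice, but without Het-631 the first 4 were called lower.

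Of the 6 centromere and kinetochore genes, 1 was lower and the median was -0.13, and without Het-631 5 were lower and it was -0.29. Nuf2, a subunit of the NDC80 complex that holds microtubules, read 85.4, 83.3, 80.7 and 84.2 CPM in Null and 61.6, 61.2, 57.02 and 83.4 in Het. All Het mice but Het-631 were below every Null mouse, with a difference of -0.34 ± 0.09 (adjusted p = 0.0116), a call lost without Het-594, Het-595 or Het-603. Ndc80 and Spc25 of the same complex differed by -0.12 ± 0.11 and -0.13 ± 0.09, and the differences of Cenpa, Cenpe and Cenpf were -0.08, -0.11 and -0.14, none called with all mice. Without Het-631 Ndc80, Spc25, Cenpe and Cenpf were called lower and Cenpa was not. Cenpa, the histone H3 variant of centromeres, read 58.4, 60.2, 56.8 and 64.2 CPM in Null and 49.7, 56.7, 42.9 and 77.2 in Het, groups that overlapped.

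No gene of the exit from mitosis was called in that contrast, with or without Het-631. Cdc20, the activator of the anaphase-promoting complex, read 50.4, 83.1, 59.8 and 66.2 CPM in Null and 63.8, 62.4, 49.8 and 71.6 in Het. The groups overlapped throughout, with a difference of -0.07 ± 0.17 (adjusted p = 0.838). Pttg1, securin, read 15.8, 14.9, 17.9 and 18.3 CPM in Null and 17.9, 17.2, 14.3 and 18.1 in Het. It differed by 0.01 ± 0.11, Ube2c, the ubiquitin-conjugating enzyme of the complex, by -0.29 ± 0.15 and Espl1, separase, by -0.22 ± 0.19.

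Top2a, which untangles sister chromatids, was the most abundant listed gene beside Mki67. It read 1606, 1678, 1670 and 1649 CPM in Null and 1298, 1309, 1161 and 1752 in Het, and the difference of -0.26 ± 0.10 was not called (adjusted p = 0.0664). Without Het-631 Top2a, Mki67 and Foxm1 were all called lower. Mki67, the coat protein of mitotic chromosomes used as a proliferation marker, read 1626, 1730, 1676 and 1591 CPM in Null and 1337, 1512, 1245 and 2242 in Het, with Het-631 the highest of all 8 mice and the other 3 the lowest. Foxm1, a transcription factor of these genes, read 75.7, 77.6, 77.05 and 76.9 CPM in Null and 64.2, 74.3, 60.8 and 112 in Het in the same arrangement. Its difference was 0.02 ± 0.13 with all mice and -0.21 (adjusted p = 0.0309) without Het-631, so its sign rested on that mouse.

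The genes did not all differ in the same proportion. When each level was taken relative to the mean log2 level of the 40 genes in the same library, 5 genes were lower in every irradiated Het than in every irradiated Null mouse, with mean differences of -0.62 for Ccnb1, -0.32 for Cdk1, -0.27 for Bub1, -0.26 for Kif2c and -0.21 for Kif20a. These 5 stand beside 0.928% of all genes. The other 4 that did not overlap were higher, beside 12.7% of all genes, Ckap2 by 0.65, Foxm1 by 0.245, Incenp by 0.23 and Cenpe by 0.125. The subtracted mean was lower in Het-594, Het-595 and Het-603 than in every Null mouse, which raises all genes there on this scale. The 40 genes average 0 by construction, so the shares of all genes are not a like background for them. On this scale 1 gene of AD, higher, did not overlap Null, beside 4.97% of all genes higher and 0.937% lower, and 0 of RP, beside 0.838% and 1.27%. Het-631 lay on the same side of the Null mice as the other Het mice for these 9 genes, though not always at their level. In a ratio chosen after the values had been seen, Ccnb1 read 16.5, 17.6, 14.8 and 15.7 CPM per 100 CPM of Ccna2 in the Het mice, against 19.9 to 26.8 in Null, 20.3 to 23.2 in AD and 18.3 to 25.3 in RP. Ckap2 read 27.2, 26.8, 26.2 and 26.9 per 100 of Ccna2 in Het, against 14.3 to 16.6 in Null, 15.7 to 17.5 in AD and 15.4 to 18.4 in RP. In both ratios all 4 Het mice, Het-631 included, lay outside the range of the other irradiated mice. For Cdc20 per 100 of Ccna2 the groups overlapped, with 26.5 to 32.18 in Het and 18.25 to 31.64 in Null. Basal Ckap2 ratios were 22.97 to 24.53 in Het, 23.68 to 23.84 in Null and 26.05 to 26.83 in AD. These lay nearer to irradiated Het than to the other irradiated mice. Basal Ccnb1 ratios, at 37.6 to 46.14, lay above those of all irradiated mice. Ccna2 itself was called lower in irradiated Het than in irradiated Null thymus. Genes with and without a CHR match near the start had like medians in this contrast, -0.26 for 23 genes and -0.26 for 9, and -0.41 and -0.37 without Het-631.

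In irradiated AD thymus no listed gene was called against Null, beside 0.027% of all genes (0.0225% higher and 0.0045% lower), and 1 gene passed an unadjusted p under 0.05. DESeq2 also called 0. The median difference was -0.09 and 35 of 40 genes lay below 0. Ccnb1 read 53.6, 59.1, 55.5 and 58.8 CPM in AD, within the Null range or just below it, with a difference of -0.13 ± 0.14. Bub1, which was lower in Het than in Null, read 103, 100.3, 91.7 and 91.9 CPM in AD, below every Null mouse, with a difference of -0.24 ± 0.10 (adjusted p = 0.566). Bub1, Kif11 and Mad2l1 were the 3 listed genes whose AD mice all lay below all Null mice, beside 2.46% of all genes.

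In irradiated RP thymus no listed gene was called against Null either, beside 0.0315% of all genes (0.0225% higher and 0.00901% lower), and none passed an unadjusted p under 0.05. DESeq2 also called 0. The median was 0.03 and 31 of 40 genes lay above 0. Ccnb1 read 78.2, 68.7, 54.7 and 48.5 CPM in RP and spanned a wider range than in Null. Ndc80 alone had every RP mouse above every Null mouse, beside 2.4% of all genes. Between AD and RP no listed gene was called, beside 0% of all genes, with a median of -0.13 for AD against RP, 38 genes below 0 and 1 at an unadjusted p under 0.05.

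Set against Het, both mutants were higher in some of the listed genes. RP was higher than Het in 15 genes and lower in none, beside 18.7% of all genes called (8.53% higher and 10.2% lower), with a median of 0.30. The 4 with the smallest p were Ccnb1 (0.88 ± 0.15, adjusted p = 0.000487), Bub3 (0.30 ± 0.06), Kif20a (0.52 ± 0.11) and Cdk1 (0.54 ± 0.12). AD was higher than Het in 2 genes and lower in 1, beside 14% of all genes called (5.69% higher and 8.27% lower), with a median of 0.18. These were Ccnb1 (0.74 ± 0.15, adjusted p = 0.00237), Kif20a (0.35 ± 0.11, adjusted p = 0.0325) and, lower in AD, Ckap2 (-0.40 ± 0.12, adjusted p = 0.029). Ckap2 read 42.9, 44.7, 39.1 and 44.3 CPM in AD and 55.6, 49.8, 45.1 and 40.9 in RP. Without Het-631 the counts were 32 higher for RP, beside 21.2% of all genes called (9.45% higher and 11.7% lower), and 24 higher for AD, beside 20.7% (9.05% higher and 11.6% lower), and Ckap2 was no longer called in AD against Het. Without Het-594, Het-595, Het-603 or RP-649 the count for RP was 7, and without AD-630 or AD-726 that for AD was 1, Ccnb1. Het, AD and RP were each compared with the same 4 Null mice, and AD and RP with the same 4 Het mice, so these counts are not independent of each other.

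**Figure D3:**
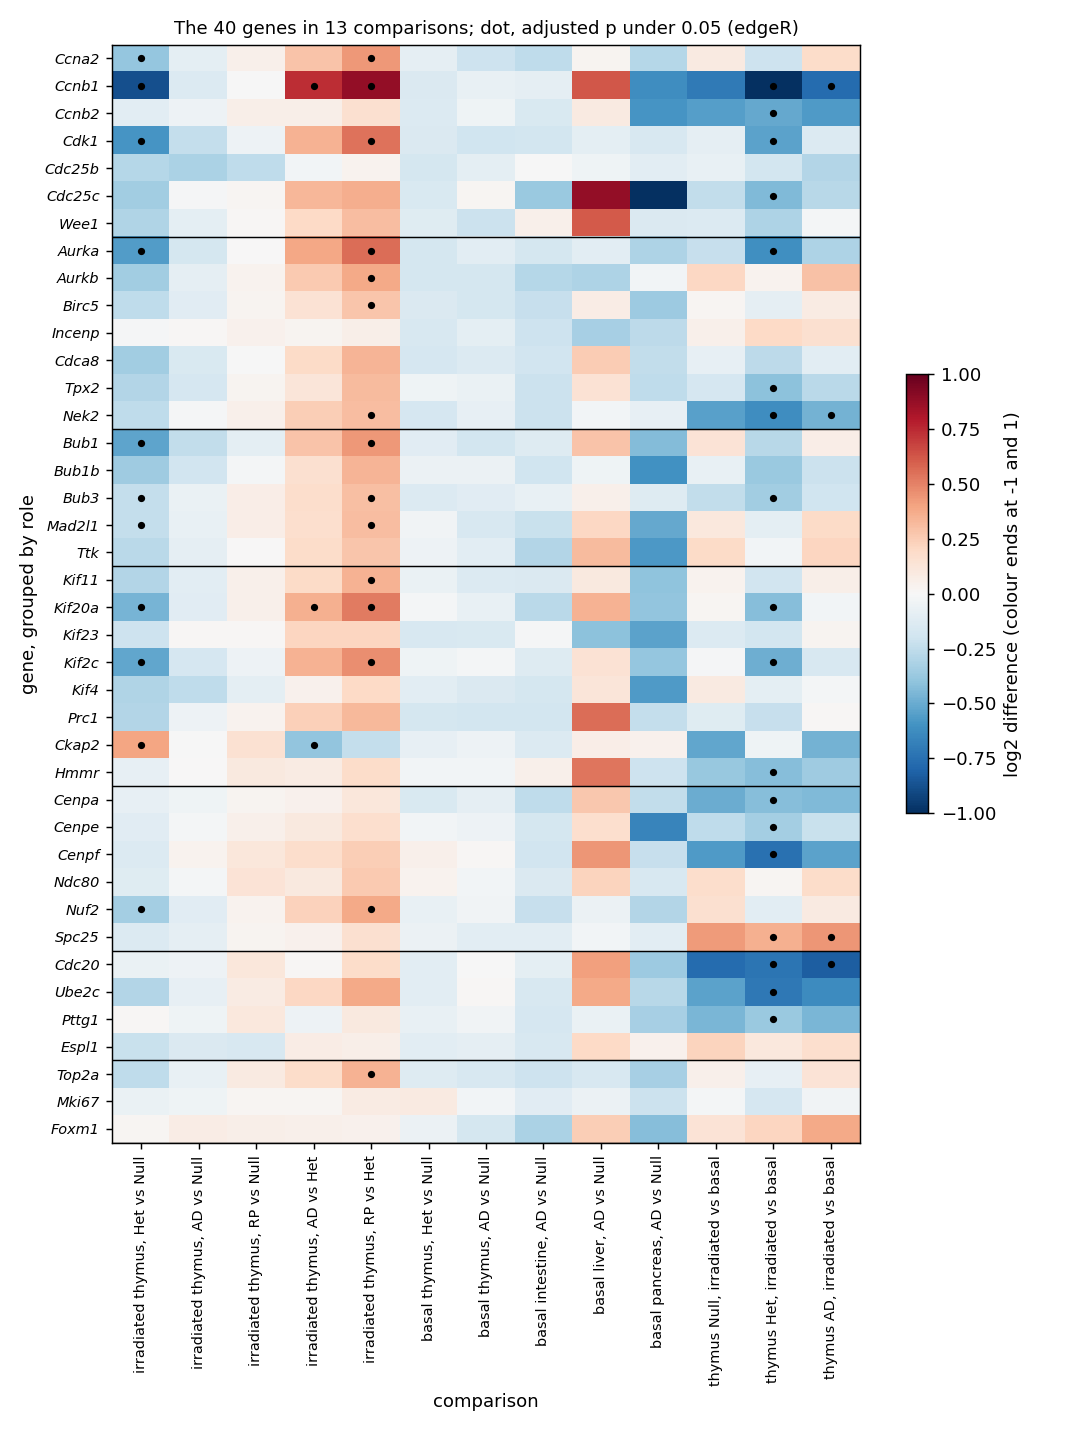
Log2 differences of the 40 genes (rows) in 13 comparisons (columns), with colour running from -1 to 1 and a dot where edgeR's adjusted p is under 0.05. All dots lie in the columns that hold irradiated Het thymus, apart from 4 in irradiated against basal AD thymus, and the columns of AD or RP against Null carry none.

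Without irradiation the thymus showed no called difference in the listed genes between genotypes. Het against Null had 0 called, beside 0.0676% of all genes (0.0406% higher and 0.0271% lower), with a median of -0.11 and 37 of 40 below 0. Only Prc1, which bundles midzone microtubules, passed an unadjusted p under 0.05 (-0.18 ± 0.08). AD against Null had 0 called, beside 0.0676% of all genes (0.0361% higher and 0.0316% lower), with a median of -0.09, 37 below 0 and Bub1, Foxm1 and Prc1 at an unadjusted p under 0.05. AD against Het had 0 called, beside 0% of all genes, with 21 above and 19 below 0 and 0 at an unadjusted p under 0.05. DESeq2 called 0 in each of these 3. Ccnb1 read 94.96 and 109 CPM in the 2 basal Null mice, 93.6, 94.1 and 88.9 in Het and 108, 102 and 80.3 in AD. The genotypes overlapped, apart from Null and Het. With 2 Null mice, 12 genes had every Het mouse below both Null mice, beside 11.9% of all genes. Markers of other cells moved with these basal groups. Fibroblast markers (Col1a1, Col3a1, Pdgfra) summed to 247 to 334 CPM in Null, 445 to 571 in Het and 429 to 575 in AD. Adipocyte markers (Adipoq, Plin1, Cfd) summed to 50.0 to 52.1 CPM in Null, 75.5 to 174 in Het and 120.1 to 169.6 in AD, and neither list overlapped between Null and the other genotypes. In each list 0 of 3 markers were called, no marker was at 0, and their part in the result was not tested.

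The irradiated mice were then set against the basal mice of the same genotype. In Het, 17 genes were lower after irradiation and 1 was higher, beside 16.8% of all genes called (8.74% higher and 8.09% lower), with a median of -0.27 against 0.02 for all genes. Thymic epithelium markers moved with it, with 2 of 5 called higher and sums of 723 to 761 CPM in basal and 904 to 1074 in irradiated Het mice. In Null their sums were 704 to 784 CPM in basal and 596.1 to 673 in irradiated mice, and in AD 692.5 to 802 and 599 to 648.8, with 0 of 5 called in each, and their part in the results was not tested. The falls took in cyclins and CDK1 (Ccnb1, Ccnb2, Cdk1, Cdc25c), kinases (Nek2, Aurka, Tpx2), Bub3, spindle genes (Kif20a, Kif2c, Hmmr), centromere genes (Cenpf, Cenpa, Cenpe) and the exit genes Cdc20, Ube2c and Pttg1. The gene that rose was Spc25, a subunit of the NDC80 complex. Without Het-631 the count was 30 lower and again Spc25 higher, with a median of -0.41, beside 17.5% of all genes called (9.44% higher and 8.04% lower). It was 11 in all without Het-603 or basal Het-697.

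The fall in Het was largest for Ccnb1 (-1.44 ± 0.15, adjusted p = 4.13e-07), from the basal values above to 32.7, 34.5, 26.4 and 42.4 CPM. Falls were also called for Nek2 (-0.62 ± 0.10, adjusted p = 9.82e-05) and Cenpf, a large kinetochore and nuclear matrix protein (-0.75 ± 0.12, adjusted p = 0.000153). Cenpf read 366, 387 and 384 CPM in basal and 202, 215, 180.4 and 306 in irradiated Het mice, without overlap. Cdc20 fell as well (-0.73 ± 0.17, adjusted p = 0.00544), from 105, 108 and 95.4 CPM in basal Het mice. Spc25 rose by 0.35 ± 0.10 (adjusted p = 0.0116), from 68.7, 66.1 and 66.3 to 80.7, 76.1, 78.2 and 108 CPM, with every irradiated mouse above every basal one.

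In AD, where Cdkn1a read 3.7, 3.11 and 4.42 CPM in basal mice, 3 genes were lower after irradiation and 1 was higher, beside 0.546% of all genes called (0.165% higher and 0.381% lower), with a median of -0.07. These were Ccnb1 (-0.77 ± 0.15, adjusted p = 0.0131), Nek2 (-0.47 ± 0.10, adjusted p = 0.0271), Cdc20 (-0.82 ± 0.17, adjusted p = 0.0305) and, higher, Spc25 (0.44 ± 0.10, adjusted p = 0.0302). Cdc20 read 131, 105 and 95.1 CPM in basal and 51.3, 67.3, 63.2 and 68.4 in irradiated AD mice, with no overlap. None of the 4 was called without AD-630, without basal AD-702 or without basal AD-700, 1 was called without AD-633 or AD-726, and DESeq2 called 9.

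In Null, with 2 basal mice, edgeR called none of the 40, beside 0.131% of all genes (0.0127% higher and 0.119% lower), with a median of -0.08. At an unadjusted p under 0.05 there were 11 lower and 1 higher, and DESeq2 called 6 lower and 1 higher. Ccnb1 read 94.96 and 109 CPM in basal and 54.8, 70.4, 55.9 and 68.4 in irradiated Null mice, a difference of -0.71 ± 0.16 (adjusted p = 0.0994) with no overlap. Cdc20 read 105 and 116 CPM in basal and 50.4, 83.1, 59.8 and 66.2 in irradiated Null mice, -0.77 ± 0.19 (adjusted p = 0.17), again with no overlap. Nek2 differed by -0.54 ± 0.11 (adjusted p = 0.0526) and Spc25 by 0.42 ± 0.11 (adjusted p = 0.172). Every irradiated Null mouse lay below both basal ones in 14 genes and above both in 6, beside 7.3% and 8.63% of all genes.

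Across the 40 genes the 3 irradiation responses, which share no library, had like patterns. The correlation was 0.955 (Pearson) and 0.938 (Spearman) between Null and AD, 0.787 and 0.803 between Null and Het, and 0.836 and 0.834 between AD and Het. These describe genes that are not independent of each other, and carry no test. In all 3 genotypes 22 genes lay below 0 and 6 lay above 0, the 6 being Aurkb, Ndc80, Spc25, Incenp, Foxm1 and Espl1. A further 8 were below 0 in Het and above 0 in both Null and AD: Ccna2, Bub1, Mad2l1, Ttk, Kif11, Nuf2, Top2a and Birc5. Bub1 responded by -0.28 ± 0.11 in Het, 0.13 ± 0.12 in Null and 0.07 ± 0.11 in AD. Ckap2 responded by -0.04 ± 0.12 in Het, -0.52 ± 0.13 in Null and -0.47 ± 0.12 in AD, none called. In irradiated Het mice its level lay on both sides of the basal Het values of 57.1, 60.2 and 56.5 CPM. Het-631 was above every basal Het mouse and the other irradiated Het mice were below them all. Het-631 thus raised the mean response of Ckap2 in Het, and without that mouse Ckap2 was still not called in irradiated against basal Het thymus. The irradiated Null and AD mice were below their basal groups.

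**Figure D4:**
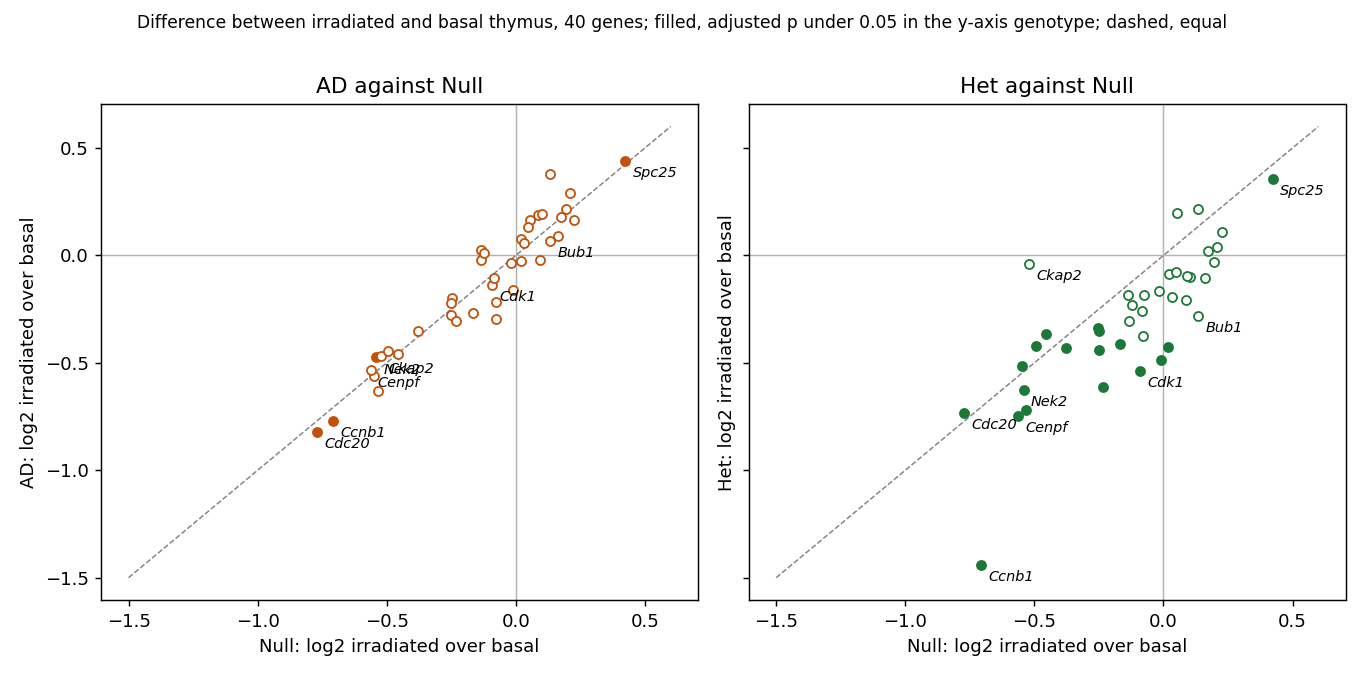
Log2 difference of irradiated against basal thymus for the 40 genes, with Null on the horizontal axis and AD (left panel) or Het (right panel) on the vertical axis; filled points are genes called in the genotype of the vertical axis. Ccnb1 lies lowest in Het at -1.44, against -0.71 in Null and -0.77 in AD.

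The difference between responses was tested as an interaction, and no listed gene was called. Het minus Null had 0 called, beside 3.44% of all genes, with 5 lower and 1 higher at an unadjusted p under 0.05. Het minus AD had 0 called, beside 3.98% of all genes, with 6 lower and 1 higher at an unadjusted p under 0.05. AD minus Null had 0 called, beside 0% of all genes, and 0 at an unadjusted p under 0.05. DESeq2 called 1, 1 and 0. For Ccnb1 the response in Het minus that in Null was -0.73 ± 0.23 (adjusted p = 0.0827) and minus that in AD it was -0.67 ± 0.21 (adjusted p = 0.0814). Without Het-631, 9 genes were lower in Het minus Null, beside 5.65% of all genes called (3.59% higher and 2.06% lower). They were Ccna2, Ccnb1, Bub1, Ttk, Kif11, Kif20a, Kif2c, Nuf2 and Mki67. In Het minus AD 14 genes were lower, beside 6.74% of all genes called (4.32% higher and 2.42% lower).

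Other lists of the cell cycle were read beside the 40 genes in irradiated thymus, Het against Null. Of all genes 9.38% were called lower there and 9.79% higher. Of 30 S phase genes 20 were lower and 0 higher, with a median of -0.45, and those with the smallest p were Ung (-1.29), Mcm6 (-0.82), Mcm2 (-0.50) and Slbp (-0.54). Their summed level was 2946 to 4042 CPM in Het, with Het-631 the highest, and 3967 to 5230 in Null. Of 50 further mitosis genes 9 were lower and 4 higher, with a median of -0.22. The higher genes included Psrc1 (3.04 ± 0.15) and Gtse1 (2.08 ± 0.15), microtubule-associated genes known as p53-induced, and the lower ones included Pbk (-0.60 ± 0.10). Of 12 genes of the DREAM and MuvB complex 5 were lower, among them Tfdp1 (-0.42) and Rbbp4 (-0.44), and 2 were higher, Rbl2 (0.65), which encodes the pocket protein p130, and Tfdp2 (0.42). Of 15 subunits of the anaphase-promoting complex 4 were lower. Of 9 p53 targets that restrain G2, 8 were higher, among them Plk2 (3.83), Ccng1 (2.81) and Zmat3 (2.75). Without Het-631, 28 S phase genes were lower, 36 further mitosis genes lower and 3 higher, 6 DREAM and MuvB genes lower and 2 higher, 6 subunits of the anaphase-promoting complex lower and all 9 p53 targets higher. Of all genes 11.2% were then called lower and 11.9% higher. In AD against Null none of these 5 lists had a called gene, beside 0.027% of all genes.

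In basal intestine no listed gene was called between AD and Null, beside 0.015% of all genes. The median was -0.18, 38 of 40 lay below 0 and 6 passed an unadjusted p under 0.05, while DESeq2 called 0. Foxm1 read 12.5, 12.3 and 12.7 CPM in AD and 15.5, 16.7 and 14.6 in Null, with no overlap and a difference of -0.32 ± 0.10 (adjusted p = 0.742). Aurkb read 17.4, 18.9 and 16.1 CPM in AD and 21.2, 21.4 and 21.2 in Null, also with no overlap, and differed by -0.29 ± 0.10 (adjusted p = 0.749). In 16 of the 40 genes all AD mice lay below all Null mice, beside 6.43% of all genes. The intestines of AD-702 and Null-923 held much pancreatic acinar RNA (Cpa1, Cela1, Prss2, Cel), 42670 and 23560 CPM in sum, against 339 and 4332 CPM in AD-700 and AD-701 and 273 and 4889 CPM in Null-859 and Null-1087, with 0 of 4 markers called and none at 0. Without both libraries 0 genes were called, beside 0.164% of all genes, the median was -0.13, and 17 genes had all AD below all Null mice, beside 18.5% of all genes, with 2 mice a group. S phase genes moved with the 40, their summed level being 736.6 to 865.6 CPM in AD and 882.9 to 918 in Null. Intestinal crypt markers (Lgr5, Olfm4, Ascl2, Smoc2) had 0 of 4 called and summed to 494 to 592 CPM in AD and 525 to 658 in Null, and none was at 0. Fibroblast markers (Col1a1, Col3a1, Pdgfra) had 0 of 3 called and summed to 874 to 1212 CPM in AD and 1184 to 1423 in Null. Their part in the result was not tested.

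In basal liver no listed gene was called between AD and Null, beside 0.267% of all genes, and none passed an unadjusted p under 0.05, while DESeq2 called 0. AD-702 and Null-859 stood above the other livers, with 421.2 and 369 CPM summed over the 40 genes against 238 to 277 in the other 4. Ccnb1 read 8.86, 4.999 and 4.64 CPM in AD and 5.53, 3.33 and 3.2 in Null. The median difference was 0.13, but -0.24 without AD-702 and 0.37 without Null-859, so its sign rested on 1 mouse. The liver of AD-702 also held more pancreatic acinar RNA (Cpa1, Cela1, Prss2, Cel), 473.8 CPM in sum against 20.6 to 38.8 in the other 5 livers, and all 4 of these markers lay above 0 in AD against Null with 0 called. Its part in the result was not tested.

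In basal pancreas no listed gene was called either, beside 0.0548% of all genes (0.0479% higher and 0.00685% lower). The median was -0.29, 38 of 40 lay below 0 and 4 passed an unadjusted p under 0.05, while DESeq2 called 0. Bub1b read 2.87, 2.5 and 2.97 CPM in AD and 4.22, 3.84 and 4.62 in Null, with no overlap and a difference of -0.60 ± 0.21 (adjusted p = 0.461). Cenpe, a kinetochore motor, read 3.64, 3.68 and 2.43 CPM in AD and 4.75, 4.5 and 6.13 in Null, also with no overlap, and differed by -0.66 ± 0.22 (adjusted p = 0.445). In 5 genes all AD mice lay below all Null mice, beside 6.66% of all genes. S phase genes summed to 98.1 to 113.5 CPM in AD and 141 to 156 in Null. The AD to Null difference of each of intestine, liver and pancreas was tested against that of thymus as an interaction, with 0 called, beside 0.0778%, 0.086% and 0.0737% of all genes, with medians of -0.06, 0.23 and -0.16.

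Tissues differed far more than genotypes. In basal AD and Null mice, 39 of the 40 genes were higher in thymus than in intestine and none lower. The median was 1.64 on the log2 scale, and 75% of all genes were called (39.7% higher and 35.3% lower). Ndc80 differed most (2.51 ± 0.18) and Wee1 was the gene not called (0.20 ± 0.21). Against liver 39 genes were higher, beside 79.3% of all genes called (47.7% higher and 31.6% lower). The median was 3.21, with Top2a differing most (4.52 ± 0.20) and Pttg1 not called (-0.26 ± 0.13). Against pancreas all 40 were higher, beside 70.4% of all genes called (38.9% higher and 31.5% lower). The median was 3.25, with differences from Wee1 (0.54 ± 0.22) to Kif11 (4.28 ± 0.14). The call of Wee1 was lost with RLE scaling, with DESeq2 and without any of pancreas AD-702, AD-701, Null-859 or Null-1087 or thymus Null-923, AD-702 or AD-700. The medians of all genes in these 3 comparisons were 0.14, 0.53 and 0.22. Tissues differ widely in RNA makeup. With library totals in place of TMM the medians of the 40 were 2.13, 4.46 and 5.29, all 40 were higher in each, and Pttg1 was 0.99 higher in thymus than in liver.

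Intestine stood between thymus and the other organs. Against liver it was higher in 36 genes and lower in 3, with a median of 1.503, beside 70.5% of all genes called (42% higher and 28.5% lower). The 3 lower were Pttg1 (-0.81 ± 0.12), Spc25 (-0.77 ± 0.13) and Bub3 (-0.19 ± 0.07), and with library totals none was lower and Bub3 was higher (0.57). Without the intestines of AD-702 and Null-923, Bub3 was not called (-0.16), and the other calls of intestine against the 3 tissues were the same genes. The call of Bub3 was also lost with no filter, without the intestine of AD-702 alone and without the liver of Null-1087. Against pancreas 39 genes were higher, with a median of 1.67, beside 64.3% of all genes called (34.9% higher and 29.4% lower). Between liver and pancreas the 40 genes went both ways, with 13 higher in liver and 10 lower. Of all genes 65.3% were called (30% higher and 35.3% lower). The median of the 40 was 0.06, while library totals gave 29 higher and 1 lower. With TMM, Pttg1 (1.92 ± 0.14) and Nek2 (1.58 ± 0.14) were higher in liver and Mki67 (-1.49 ± 0.15) and Wee1 (-0.98 ± 0.22) lower. With library totals Mki67 was the 1 lower gene (-0.70) and Wee1 was not called (-0.19).

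**Figure D5:**
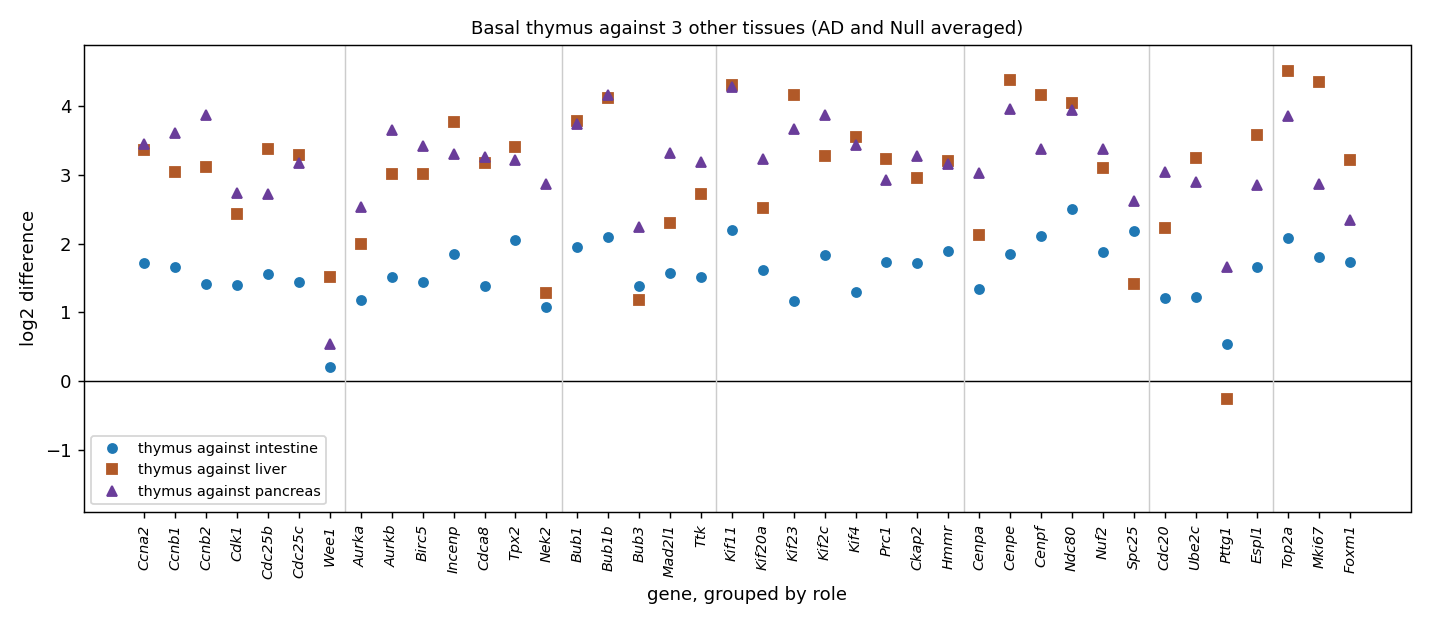
Log2 difference (vertical axis) of each listed gene (horizontal axis) between basal thymus and basal intestine, liver or pancreas in AD and Null mice after TMM scaling. All points but that of Pttg1 against liver lie above 0, and the differences from liver and pancreas, with medians of 3.21 and 3.25, exceed those from intestine, with a median of 1.64.

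Levels of different genes were compared per kilobase of annotated exon length, as mean ± SD over mice. This length joins the exons of all annotated transcripts of a gene, so the order of genes depends partly on it. In basal thymus Mki67 (169 ± 9.9, n = 8) and Top2a (164 ± 14, n = 8) led, neighbours that did not differ beyond their spread, and the third, Ccnb2, was at 62.1 ± 7.1. In intestine Mki67 (33.2 ± 1.9, n = 6), Top2a (27.8 ± 2.9) and Cdc20 (18.0 ± 2.5) led. In liver the order was another, with Pttg1 (5.63 ± 0.53, n = 6), Cdc20 (5.27 ± 2.1) and Bub3 (4.47 ± 0.30) ahead of Mki67 (3.34 ± 1.1), and Cdc20 and its neighbours in this order lay within its SD. In pancreas Mki67 (5.43 ± 1.0, n = 6), Top2a (2.80 ± 0.48) and Cdc20 (1.73 ± 0.37) led. Cdc25c was last of the 40 in all 4 tissues. Pttg1 read 12.8, 10.03 and 10.1 CPM in AD and 11.8, 11.3 and 11.4 in Null liver. In intestine it read 9.94, 11.2 and 9.69 CPM in AD and 11.1, 11.3 and 12.3 in Null. These CPM were scaled within each tissue, so liver and intestine are not on the same scale. In the fit across tissues Pttg1 was called lower in intestine than in liver, a call that was lost with library totals.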

How the data were processed

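The authors deposited 1 matrix of raw counts for 49585 gene identifiers in 42 columns, which was used as deposited. STAR 2.6.0b, DESeq2 and the build GRCm38 are named, per the submitters' processing notes, while the counter, its strand setting and the annotation release are not given in the sources used here. Columns were matched to samples by animal, genotype and tissue, and 5 basal thymus columns that name no tissue were matched as the only ones left for their animals. GENCODE M21 named 49326 identifiers and missed 259. Replicates are different mice, and pairs of libraries within a group differed beyond sampling noise (chi-square per degree of freedom of at least 4.35).

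In R 4.3.3, counts were filtered with filterByExpr, scaled by TMM and tested with edgeR 4.0.16 (robust quasi-likelihood F test, with limma 3.58.1), and p-values were Benjamini-Hochberg adjusted over all genes of the fit. The fits held 22206 genes in 16 irradiated thymus libraries (biological coefficient of variation 0.153), 22173 in 8 basal thymus (0.119), 20011, 15755 and 14604 in 6 libraries each of intestine (0.216), liver (0.237) and pancreas (0.184), 23605 in all 24 thymus (0.145), and 24431 in 23 basal AD and Null libraries of 4 tissues (0.205). Alternatives were DESeq2 1.42.0, RLE scaling, no filter, fits of only the 2 groups compared, each mouse left out in turn, pairs of libraries that stood apart left out (chosen after seeing the data) and, across tissues, a block for the mouse, since animal numbers pair tissues of the same animal. The edgeR step was tested on simulated data. The 40 genes and the other lists were chosen with earlier results of these data known. By rule, values by mouse are given for Ccnb1, Cdk1, Ccna2, Cdc20, Aurka, Aurkb, Bub1, Kif20a, Cenpa, Pttg1, Top2a, Mki67, Foxm1, Wee1, Cdc25b, Trp53 and Cdkn1a and for called genes with the smallest p, and other lists by up to 4 called members with the smallest p. Other members described by mouse, among them Ckap2, Nuf2 and Cenpf, and the ratios to Ccna2 were chosen after their values were seen. So was the fuller account of the fits without Het-631.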

Additional observations from a re-analysis of the deposited data

Results flagged for a closer look

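In each irradiated group of 4 mice, a gene's value was singled out where the highest or lowest mouse stood off from the nearest other by more of the group's range than Dixon's 95% critical value for 4 samples. Of 160 groups of values, 9 met this, and chance gives about 1 in 20. Null-604 was high in 4 of them, with 95.5 CPM of Cdc25b, 330.4 CPM of Bub1b, 152 CPM of Kif4 and 118 CPM of Espl1. Het-631 was high in 3, with 96.7 CPM of Cdk1, 69.3 CPM of Ttk and 108 CPM of Spc25. AD-630 was high in 2, with 99.3 CPM of Spc25 and 1693 CPM of Mki67.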

How the results depend on the processing

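Of 1344 values of single genes under an alternative, 1134 kept their direction and side of the threshold, 181 were no longer called, 15 became called and 14 changed sign. Counts of called listed genes moved most with the mice of irradiated thymus. With each mouse left out in turn they ran from 6 to 30 for Het against Null (highest without Het-631), 1 to 24 for AD against Het, 7 to 32 for RP against Het, 11 to 31 for irradiated against basal Het, 0 to 4 for irradiated against basal AD, 0 to 9 for the response of Het minus Null and 0 to 14 for Het minus AD. Without both Het-631 and Null-604, a choice made after seeing the data, they were 28 for Het against Null, 30 for AD against Het, 34 for RP against Het, 6 and 33 for the responses of Null and Het, and 11 and 19 for Het minus Null and Het minus AD. With only the 2 groups in the fit, Het against Null had 4, AD against Het 1 and RP against Het 8. DESeq2 gave 6 for AD against Het, 7 and 9 for the responses of Null and AD, and 1 each for Het minus Null and Het minus AD, and no filter gave 1 for the response of Null. The cause was not tested.

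Signs of log2 differences changed in Het against Null of irradiated thymus for 5 genes. With each mouse left out in turn, Pttg1 ran from -0.040 (without Null-604) to 0.104 (without Het-603) and was -0.057 without both Het-631 and Null-604, and Cdc20 ran from -0.170 (without Null-593) to 0.073 (without Null-604) and was 0.015 without both. Cenpa ran from -0.266 (without Het-631) to 0.051 (without Het-603), Mki67 from -0.277 (without Het-631) to 0.056 (without Het-603), and Foxm1 from -0.208 (without Het-631) to 0.142 (without Het-603), with -0.186 without both. With library totals, chosen after seeing the data, Pttg1 of thymus against liver became 0.99 and Bub3 of intestine against liver 0.57. Among 367 medians 11 moved, of which the median of intestine against liver was 1.75 without liver AD-702 and that of AD against Null in liver minus thymus was -0.10 without liver AD-702 and 0.47 without liver Null-859. With a replicate block for the mouse the 6 comparisons of tissues had 39, 39, 40, 39, 39 and 22 called genes and the 3 interactions with tissue 0 each, so the pairing changed no count by over 1.5 times. No paired analysis was possible within thymus because no mouse number occurs in both groups compared. Leaving out the intestines AD-702 and Null-923 together, also chosen after seeing the data, ended the call of Bub3 in intestine against liver and no other. That call was also lost with no filter, without intestine AD-702 alone and without liver Null-1087. The call of Wee1 in thymus against pancreas was lost under RLE and DESeq2. The 2 basal Null mice limit every comparison of irradiated with basal Null thymus. The labels give neither dose nor sex, so groups could not be compared on them.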
